A study of Homo sapiens with 12 samples.

Results

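Transcript levels of 36 genes of central carbon metabolism were examined on 12 expression arrays, out of 37 listed genes of glycolysis, the pentose phosphate pathway, pyruvate entry into the mitochondrion and the tricarboxylic acid (TCA) cycle. A gene was represented by the brightest of the probe sets that carry its symbol alone, by the mean over all 12 arrays, and 11963 genes in all were measured in this way. FH, a TCA cycle enzyme, is not analysed here. The cells were HCC827, an established human lung adenocarcinoma line with an activating EGFR mutation, and lines derived from it, in 4 groups of 3 arrays. The HCC827 group was the parental line, and ERC4 cells carried the label erlotinib resistant, after a drug that blocks the kinase activity of EGFR. HCC827NT cells had received a lentivirus with a non-target shRNA as the control, and HCC827_Esh9-1 cells a lentivirus with an shRNA against EGFR. All 4 groups were harvested in exponential growth from RPMI with 5% FBS and antibiotics, and HCC827NT and HCC827_Esh9-1 cells also had 5 ug/ml puromycin. No drug treatment at harvest is named in the labels. ERC4 is 1 resistant line and HCC827_Esh9-1 carries 1 named shRNA, so what belongs to the line or the hairpin cannot be told apart from resistance or loss of EGFR. The labels do not say whether replicates came from separate cultures, so the p-values cover the scatter among these arrays alone, part of which may be technical.

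Glycolysis splits glucose into pyruvate in the cytosol, first through phosphorylated hexoses and then through triose phosphates, and lactate dehydrogenase turns pyruvate into lactate. The pyruvate dehydrogenase complex instead commits pyruvate to the TCA cycle in the mitochondrion, and pyruvate dehydrogenase kinases switch that complex off. The pentose phosphate pathway branches off at glucose 6-phosphate and gives NADPH and ribose. EGFR signalling is known to raise glucose uptake and glycolysis in lung cancer cells that depend on it, and hypoxia-inducible factors and MYC are known activators of many of these genes.

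Array medians fell into 2 sets, at 50 to 53 for HCC827 and ERC4 and at 141 to 143 for HCC827NT and HCC827_Esh9-1, and levels were not compared across the sets. Each comparison was made between the 2 groups of its set, as log2(intensity + 1) in limma, with the spread estimated from all 12 arrays. A gene was called where its two-sided p, adjusted by Benjamini-Hochberg across 11963 genes, was under 0.05. Replicate arrays correlated at 0.9923 or above. EGFR fell by 1.30 ± 0.07 (SE) on the log2 scale in HCC827_Esh9-1 against HCC827NT (2.46-fold, adjusted p = 1.98e-09), in the direction of the labels. The 7 epithelial markers lay above the array median in HCC827, ERC4 and HCC827NT, and 6 of them did in HCC827_Esh9-1. Their summed intensity was 18568 to 18837 in HCC827 against 8407 to 8786 in ERC4, and 58754 to 60045 in HCC827NT against 10605 to 11040 in HCC827_Esh9-1. None of 4 leukocyte and 4 endothelial markers was above the array median in any group, and 1 or 2 of 6 fibroblast markers were. The 3′ minus 5′ log2 signal of the ACTB control, a sign of RNA length, was 0.22 ± 0.05 (SD, n = 3) in HCC827, 0.19 ± 0.04 in ERC4, 0.20 ± 0.03 in HCC827NT and 1.07 ± 0.15 in HCC827_Esh9-1. The mean log2 signal of the hybridisation controls, spiked into each sample, was 11.04 in HCC827 and 9.48 in ERC4, and 11.37 in HCC827NT and 11.92 in HCC827_Esh9-1. What these differences contribute to the values below was not tested. The arrays measured RNA of many cells together, so a lower level per cell and fewer cells with a transcript cannot be told apart.

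In ERC4, 18 of the 36 genes rose and 4 fell, while 14 were not called. Among all genes, 57.7% passed the threshold, 28.9% as higher and 28.8% as lower. Changes of at least 1.5-fold were made by 7 genes upward, where 12.4% of all genes passed that mark, and by 1 gene downward (6.35% of all genes). These were SLC2A1, HK1, PGK1, ENO2, PDK3, PDHB and IDH3A upward and IDH1 downward. In HCC827_Esh9-1 the balance ran the other way, with 7 genes higher and 15 lower, and 14 not called. There 49.9% of all genes passed it, 25.3% as higher and 24.6% as lower. At least 1.5-fold lower were 11 of the 36 (9.2% of all genes) and at least 1.5-fold higher were 3 (11.5% of all genes). The median log2 fold change of the list was 0.15 in ERC4 (-0.04 over all genes) and -0.04 in HCC827_Esh9-1 (-0.02 over all genes). The 3 arrays of a group did not overlap with those of its control for 29 genes in ERC4 (60.5% of all genes) and 27 in HCC827_Esh9-1 (61.3% of all genes).

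**Figure D1:**
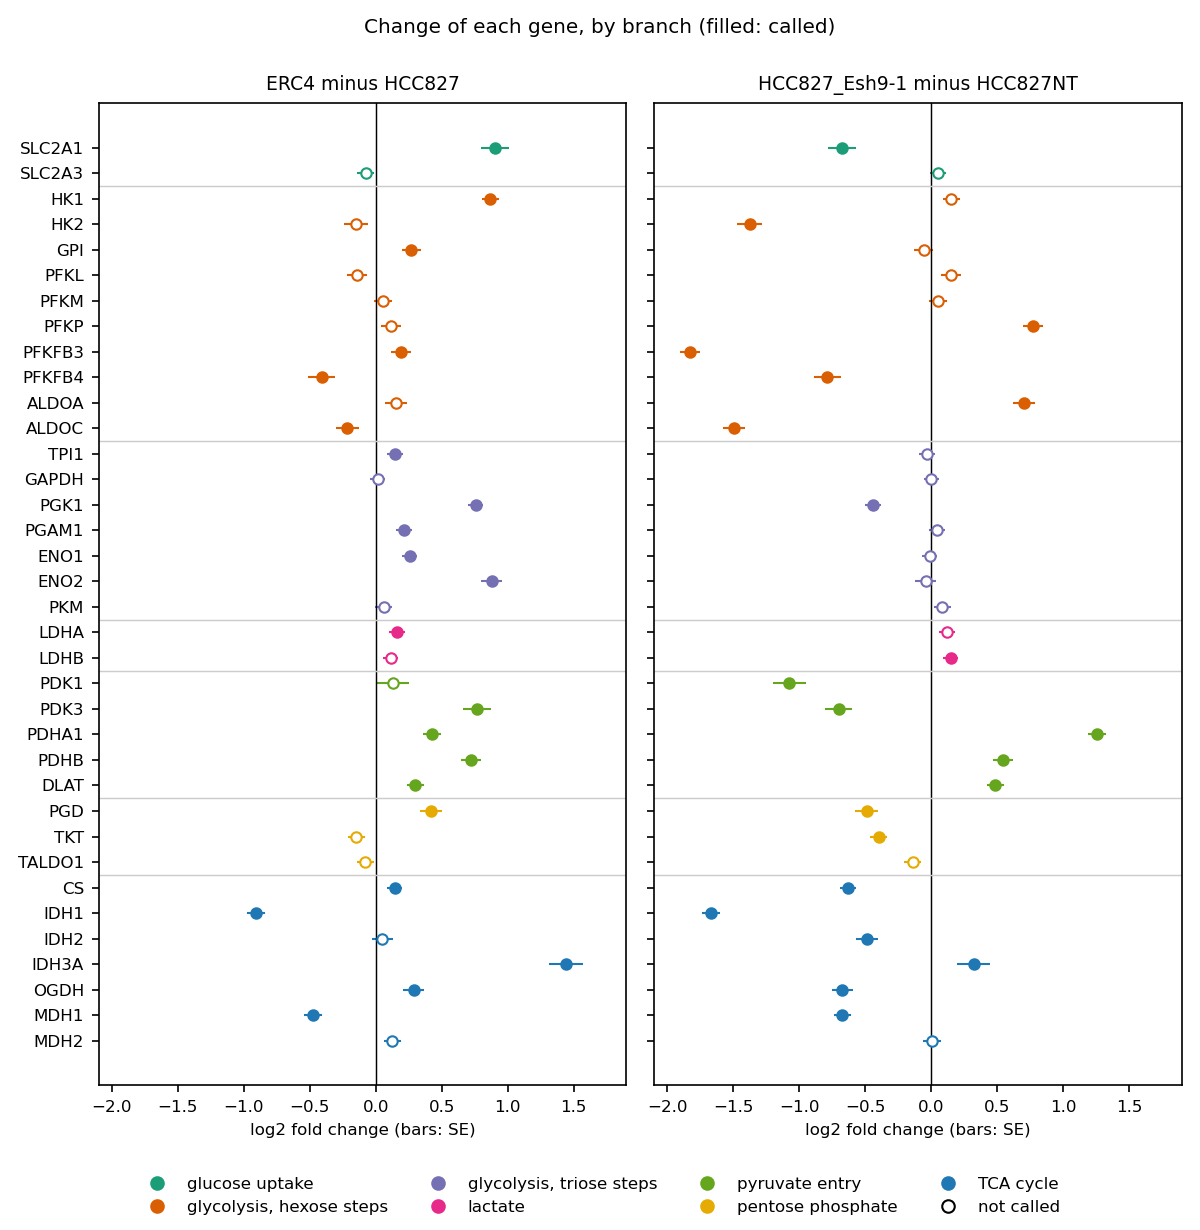
Log2 fold change of each of the 36 genes, by branch of the pathway, for ERC4 minus HCC827 (left) and HCC827_Esh9-1 minus HCC827NT (right); bars are limma standard errors, filled points are called and open points are not. Filled points lie mostly to the right of 0 on the left (18 against 4) and mostly to the left of 0 on the right (15 against 7).

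The genes were then set apart by branch. These counts are to be read against all genes, of which 28.9% were higher and 28.8% lower in ERC4. In HCC827_Esh9-1 25.3% of all genes were higher and 24.6% lower. Bright genes as a whole were shifted upward in ERC4, where 53.2% of the brightest 20% were called higher. In ERC4 the calls were 1 higher of 2 for glucose uptake, 3 higher and 2 lower of 10 for the hexose steps, and 5 higher of 7 for the triose steps. Further on they were 1 higher of 2 for lactate, 4 higher of 5 for pyruvate entry, 1 higher of 3 for the pentose phosphate pathway, and 3 higher and 2 lower of 7 for the TCA cycle. In HCC827_Esh9-1, 1 of 2 uptake genes was lower, and the hexose steps had 2 higher and 4 lower. Of the 7 triose genes only PGK1 was called there, as lower. Pyruvate entry had 3 higher and 2 lower of 5, the pentose phosphate pathway 2 lower of 3, and the TCA cycle 1 higher and 5 lower of 7. The median log2 fold change of the TCA genes was -0.63 in HCC827_Esh9-1 and 0.13 in ERC4, and that of the triose genes was -0.01 and 0.22.

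Sequences are shown for the members called with at least 1.5-fold in both comparisons, namely SLC2A1 and PDK3, which rose in ERC4 and fell in HCC827_Esh9-1, and IDH1, which fell in both. Each is the window from 250 bases before to 50 bases after a RefSeq start site in GRCh38.p14, written 5′ to 3′ on the gene's strand, and IDH1 has 2 start sites in the table. Capitals mark ACGTG or GCGTG on either strand (CACGC is GCGTG on the other strand), the cores bound by hypoxia-inducible factors. An E-box of the kind bound by MYC, CACGTG, holds ACGTG within it and was not found in these windows.
SLC2A1, chr1:42958819-42959118, minus strand: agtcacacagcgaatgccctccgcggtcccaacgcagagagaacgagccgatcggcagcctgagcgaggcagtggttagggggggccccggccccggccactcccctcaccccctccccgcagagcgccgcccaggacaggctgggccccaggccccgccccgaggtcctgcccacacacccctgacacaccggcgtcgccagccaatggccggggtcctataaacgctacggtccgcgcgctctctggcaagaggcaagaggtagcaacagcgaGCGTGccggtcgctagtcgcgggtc
PDK3, chrX:24465036-24465335, plus strand: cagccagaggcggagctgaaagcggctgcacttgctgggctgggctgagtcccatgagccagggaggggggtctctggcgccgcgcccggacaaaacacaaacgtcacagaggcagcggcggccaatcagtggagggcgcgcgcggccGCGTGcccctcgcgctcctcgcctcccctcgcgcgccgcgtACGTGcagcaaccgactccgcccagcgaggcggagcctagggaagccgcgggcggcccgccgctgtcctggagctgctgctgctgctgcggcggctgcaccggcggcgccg
IDH1, chr2:208254409-208254708, minus strand: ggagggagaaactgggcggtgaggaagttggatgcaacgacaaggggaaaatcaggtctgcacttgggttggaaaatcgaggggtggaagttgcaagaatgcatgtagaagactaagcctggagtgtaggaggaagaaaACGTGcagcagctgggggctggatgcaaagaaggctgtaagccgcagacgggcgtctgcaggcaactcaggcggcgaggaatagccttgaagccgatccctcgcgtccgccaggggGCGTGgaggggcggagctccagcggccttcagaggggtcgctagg
IDH1, chr2:208255022-208255321, minus strand: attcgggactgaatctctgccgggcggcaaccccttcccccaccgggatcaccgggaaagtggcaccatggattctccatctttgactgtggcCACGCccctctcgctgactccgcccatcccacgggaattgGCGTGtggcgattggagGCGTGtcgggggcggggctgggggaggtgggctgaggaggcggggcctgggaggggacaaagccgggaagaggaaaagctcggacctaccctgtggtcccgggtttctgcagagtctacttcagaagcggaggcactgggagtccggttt

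ACGTG or GCGTG was present in 48.4% of all 35116 RefSeq windows of this length, in 56.7% of the windows of the genes on the array and in 63.8% (37 of 58) of the windows of 34 members with an entry. Taken apart, ACGTG was present in 21.4%, 23.7% and 37.9% of them, and GCGTG in 36.5%, 44.6% and 44.8%. CACGTG was present in 7.26%, 8.76% and 12.1% of them. These shares were not tested. Windows with ACGTG or GCGTG are therefore frequent among all genes. Both the genes that moved in opposite directions and the gene that fell in both comparisons hold such a core. A match is a description of letters and not of binding.

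Glucose enters the cell through transporters of the SLC2A family. SLC2A1 (GLUT1, the main basal glucose transporter of most cells) rose in ERC4 and fell in HCC827_Esh9-1. Its log2 level was 8.34, 8.10 and 7.97 on the HCC827 arrays and 8.79, 9.21 and 9.13 on the ERC4 arrays, a change of 0.91 ± 0.11 (1.87-fold, adjusted p = 5.96e-06). On the HCC827NT arrays it was 9.86, 9.90 and 9.90 against 9.28, 9.22 and 9.15 in HCC827_Esh9-1, a change of -0.67 ± 0.11 (1.60-fold, adjusted p = 8.93e-05). All 3 ERC4 arrays were above, and all 3 HCC827_Esh9-1 arrays below, every array of their controls. The difference between both changes was 1.58 ± 0.15 (adjusted p = 9.62e-07). SLC2A3 (GLUT3, a high-affinity transporter) lay below the array median in all groups and was not called, at -0.08 ± 0.06 and 0.05 ± 0.06. A dimmer SLC2A3 probe set, 202499_s_at, was higher by 0.94 in HCC827_Esh9-1, so the absence of a call rests on the chosen probe set.

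Hexokinases trap glucose as glucose 6-phosphate, and the 2 forms on the list changed in different comparisons. HK1, the widely expressed form, rose in ERC4 from 9.40, 9.33 and 9.36 to 10.28, 10.22 and 10.20, by 0.87 ± 0.06 (1.83-fold, adjusted p = 5.06e-08). In HCC827_Esh9-1 it was 0.15 ± 0.06 higher than in HCC827NT (adjusted p = 0.0609), which passed the threshold without HCC827_Esh9-1 replicate 3 (0.19). HK2, the form often raised in tumours, was lower in HCC827_Esh9-1, at 8.54, 8.49 and 8.36 against 9.89, 9.72 and 9.91 in HCC827NT. That change was -1.38 ± 0.09 (2.60-fold, adjusted p = 1.09e-08), and no array of HCC827_Esh9-1 came within 1 log2 unit of those of HCC827NT. In ERC4, HK2 differed by -0.15 ± 0.09 and was not called, although it was without ERC4 replicate 2 (-0.25). A dimmer HK2 probe set, 222305_at, was higher by 0.24 in HCC827_Esh9-1, against the chosen one. The log2 ratio of HK1 to HK2 thus moved toward HK1 in both comparisons, by 1.01 and 1.53, with no overlap of arrays.

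Phosphofructokinase commits hexose to glycolysis, and of its 3 isozymes only PFKP was called. PFKP, the platelet form, rose in HCC827_Esh9-1 from 10.66, 10.88 and 10.85 to 11.68, 11.58 and 11.44, by 0.77 ± 0.08 (1.71-fold, adjusted p = 1.04e-06). In ERC4 it differed by 0.11 ± 0.08 and was not called. PFKL (liver form) and PFKM (muscle form) were not called in either comparison, with values from -0.14 to 0.15. After scaling that removes shifts following signal level, PFKL and PFKM were called lower in ERC4. GPI, which converts glucose 6-phosphate to fructose 6-phosphate, rose in ERC4 by 0.27 ± 0.07 (adjusted p = 0.00481), though not after the same scaling, and differed by -0.06 ± 0.07 in HCC827_Esh9-1.

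PFKFB3 and PFKFB4 make fructose 2,6-bisphosphate, the strongest activator of phosphofructokinase. PFKFB3 showed the largest fall of the list in HCC827_Esh9-1, with 8.92, 8.79 and 8.75 there against 10.61, 10.69 and 10.64 in HCC827NT. The change was -1.83 ± 0.08 (3.55-fold, adjusted p = 5.94e-11). Relative to the array median, its mean level was 3.48 in HCC827NT, 1.65 in HCC827_Esh9-1 and 2.25 in HCC827, where group and array set cannot be told apart between the pairs. In ERC4 it was 8.31, 8.19 and 8.06 against values between 7.93 and 8.06 in HCC827, a change of 0.19 ± 0.08 (adjusted p = 0.0445). That call was marginal, since it ended without HCC827 replicate 1 or 2, ERC4 replicate 1 or 2, any HCC827NT array or HCC827_Esh9-1 replicate 2 (0.13 to 0.19). After quantile or loess scaling the PFKFB3 value in ERC4 was -0.02 and not called. PFKFB4 fell in both comparisons. It went from 6.42, 6.84 and 6.56 to 6.25, 6.09 and 6.24 in ERC4 (-0.41 ± 0.10, adjusted p = 0.00375), and from 7.28, 7.26 and 7.05 to 6.30, 6.50 and 6.41 in HCC827_Esh9-1 (-0.79 ± 0.10, 1.73-fold, adjusted p = 1.45e-05). None of its arrays overlapped with the control arrays in either comparison.

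Aldolase splits fructose 1,6-bisphosphate into trioses, and its 2 forms changed in opposite directions in HCC827_Esh9-1. ALDOA, the general form, rose from 13.51, 13.33 and 13.63 to 14.31, 14.14 and 14.13, by 0.70 ± 0.08 (1.63-fold, adjusted p = 4.43e-06). ALDOC, known from brain and induced by low oxygen, fell from 8.31, 8.14 and 8.34 to 6.77, 6.62 and 6.91, by 1.49 ± 0.09 on the log2 scale (2.82-fold, adjusted p = 1.99e-09). The log2 ratio of ALDOA to ALDOC rose by 2.20 with no overlap of arrays. In ERC4 ALDOA differed by 0.15 ± 0.08 and was not called. ALDOC was -0.22 ± 0.09 lower there (adjusted p = 0.0434), with 6.85, 6.71 and 6.72 against 7.06, 6.90 and 6.98. That ALDOC call ended without HCC827 replicate 1 or 3, ERC4 replicate 2 or 3, HCC827NT replicate 1 or HCC827_Esh9-1 replicate 1 (-0.22 to -0.18).

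The triose steps recover the energy of glycolysis, and here the strong changes were those of PGK1 and ENO2. PGK1, the phosphoglycerate kinase that makes the first ATP, lay at 12.42, 12.49 and 12.44 in HCC827 and 13.21, 13.25 and 13.16 in ERC4. It rose there by 0.76 ± 0.06 (1.69-fold, adjusted p = 8.35e-08). In HCC827_Esh9-1 it fell from 13.99, 13.96 and 13.97 to 13.51, 13.53 and 13.57, by 0.44 ± 0.06 on the log2 scale (1.36-fold, adjusted p = 1.67e-05). Replicates of each group were within 0.1 log2 units, far less than either change. The difference between both changes was 1.20 ± 0.08 (adjusted p = 3.35e-08). Of the further PGK1 probe sets, 217356_s_at gave 0.90 and -1.03, and 200737_at gave 0.63 and -0.46. The dimmest, 217383_at, gave 0.60 in ERC4 but 0.01 in HCC827_Esh9-1, where it was not called (adjusted p = 0.965 over all probe sets). ENO2, the neuronal enolase, rose in ERC4 from 8.84, 9.15 and 8.90 to 9.90, 9.81 and 9.81, by 0.88 ± 0.08 (1.84-fold, adjusted p = 3.34e-07). In HCC827_Esh9-1 it differed by -0.04 ± 0.08, and the difference between both changes was 0.92 ± 0.11 (adjusted p = 8.33e-06).

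GAPDH, which oxidises glyceraldehyde 3-phosphate and is often used as a reference gene, had the smallest log2 change of the 36 in both comparisons. Its log2 level was 14.05, 14.08 and 14.09 in HCC827 and 14.12, 14.08 and 14.06 in ERC4. In HCC827NT it was 15.13, 15.08 and 15.08 and in HCC827_Esh9-1 15.08, 15.11 and 15.11. The groups overlapped in both comparisons, and the changes were 0.01 ± 0.06 and 0.00 ± 0.06. The 5′ control probe set of GAPDH gave -0.24 in HCC827_Esh9-1 (adjusted p = 0.0067 over all probe sets), where the ACTB control also showed a larger 3′ excess. Its signal was at the top of the measured range of both sets, and how far that limits its values was not tested.

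The other triose genes had log2 changes under 0.3 in size with their chosen probe sets. PGAM1, a phosphoglycerate mutase, rose by 0.22 ± 0.06 in ERC4 (adjusted p = 0.00824) and TPI1, which interconverts the trioses, by 0.15 ± 0.06 at an adjusted p just under 0.05. After cyclic loess within each set PGAM1 was at 0.11 and no longer called (adjusted p = 0.157). TPI1 lost its call under both quantile scalings and loess (0.07 to 0.10). The TPI1 call ended without HCC827 replicate 1 or 3, ERC4 replicate 1 or 2, or any 1 of the 6 HCC827NT and HCC827_Esh9-1 arrays (0.12 to 0.16). ENO1, the common enolase, rose by 0.26 ± 0.06 (adjusted p = 0.0013), but its probe set 216554_s_at fell by 1.89 in ERC4, and another, 217294_s_at, fell by 1.00 in HCC827_Esh9-1. With the mean of its probe sets, ENO1 was lower in ERC4 (-0.46). PKM, the pyruvate kinase of most tumours, was not called, at 0.06 ± 0.06 and 0.08 ± 0.06. In HCC827_Esh9-1 the changes of TPI1, PGAM1 and ENO1 were between -0.04 and 0.05 and were not called.

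Lactate dehydrogenase subunits showed small changes. LDHA, which favours lactate formation, was 0.16 ± 0.06 higher in ERC4 (adjusted p = 0.0314), a call that ended without HCC827 replicate 1 or ERC4 replicate 1 or 2 (0.14 to 0.17). It also ended after quantile normalization over 12 arrays (0.15) and after cyclic loess (0.11). In HCC827_Esh9-1, LDHA differed by 0.12 ± 0.06 and was not called. LDHB, which favours the reverse reaction, was 0.15 ± 0.06 higher in HCC827_Esh9-1 (adjusted p = 0.0451), but leaving out any 1 array other than HCC827 replicates 1 and 2 ended the call (0.13 to 0.16), as did quantile and loess scaling (0.11 to 0.14). In ERC4 it differed by 0.12 ± 0.06 and was not called.

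**Figure D2:**
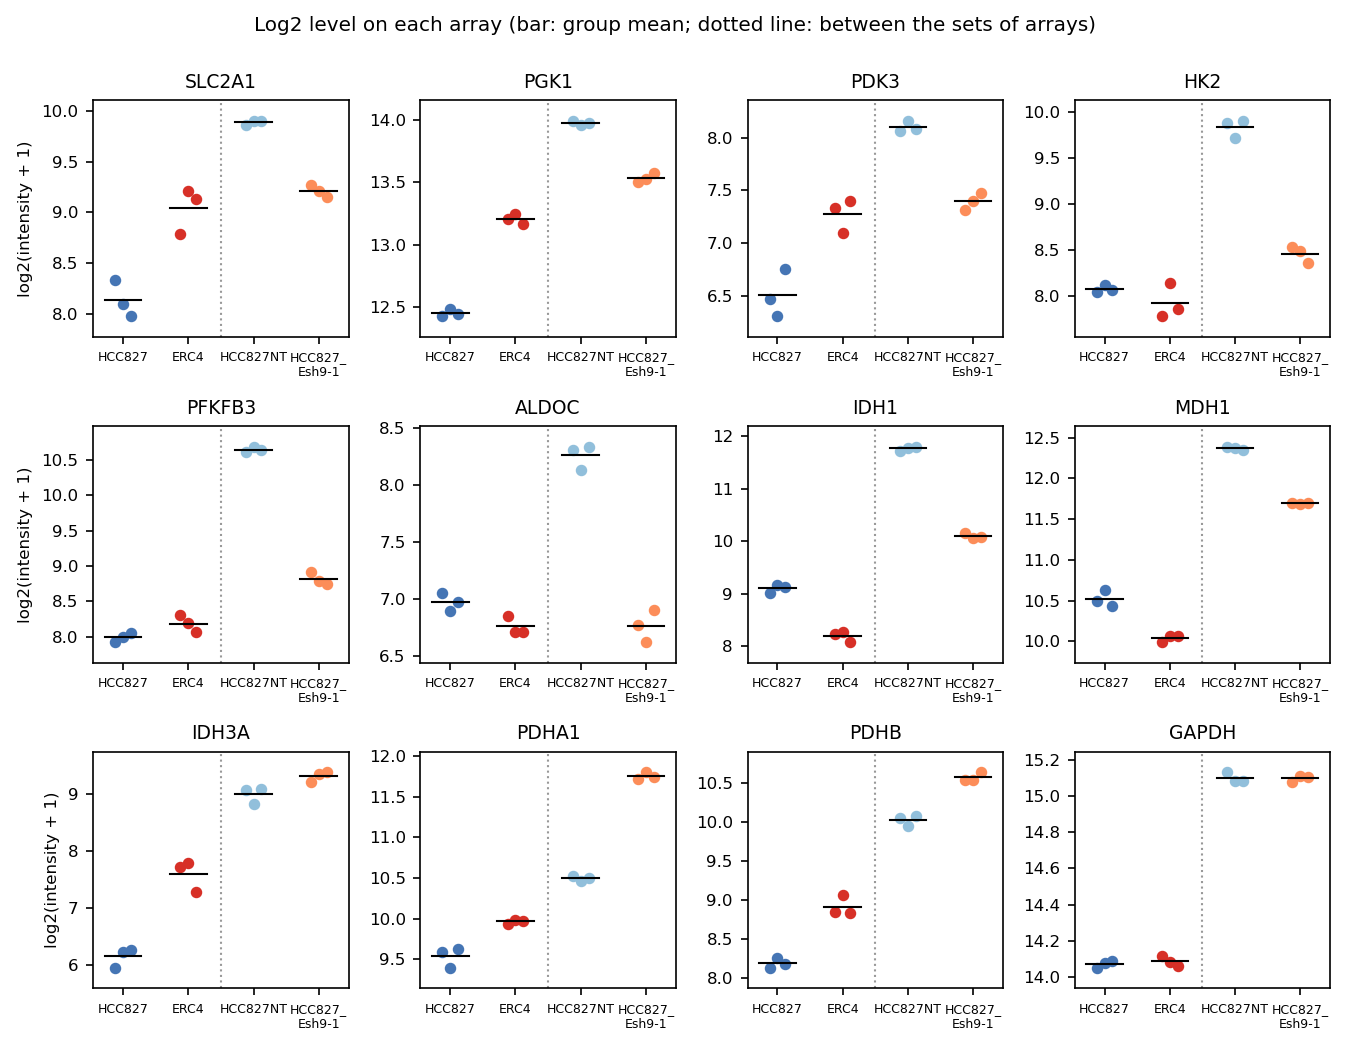
Log2(intensity + 1) of 12 of the genes on each array, with a bar at each group mean; the dotted line separates the 2 sets of arrays, which differ in array median and were not compared across it. PDK3 and SLC2A1 rise in ERC4 and fall in HCC827_Esh9-1, IDH1 and MDH1 fall in both, PDHA1 and PDHB rise in both, and GAPDH is level within each set.

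At pyruvate entry, the 3 enzyme subunits on the list rose in HCC827_Esh9-1, and PDK1 and PDK3, of the kinases that inhibit the enzyme, fell. PDHA1 and PDHB, the E1 subunits of pyruvate dehydrogenase, and DLAT, its E2 subunit, rose in both comparisons. PDHA1 went from 10.52, 10.46 and 10.50 in HCC827NT to 11.71, 11.80 and 11.74 in HCC827_Esh9-1, a rise of 1.26 ± 0.07 (2.39-fold, adjusted p = 1.31e-09) and the largest upward change of the list in that comparison. In ERC4 it rose from 9.59, 9.39 and 9.62 to 9.94, 9.98 and 9.97, by 0.43 ± 0.07 (adjusted p = 0.000115). Its second probe set, 200979_at, gave 0.68 in ERC4 and 1.59 in HCC827_Esh9-1. PDHB lay at 8.13, 8.26 and 8.19 in HCC827 and 8.85, 9.07 and 8.83 in ERC4, a rise of 0.72 ± 0.08 (1.65-fold, adjusted p = 2.12e-06). It rose from 10.05, 9.95 and 10.08 to 10.54, 10.54 and 10.64 in HCC827_Esh9-1, by 0.54 ± 0.08 (adjusted p = 2.84e-05). A dimmer PDHB probe set, 208911_s_at, gave 0.18 in ERC4 and was not called there (adjusted p = 0.0515 over all probe sets). In HCC827_Esh9-1 it gave 0.255 (adjusted p = 0.0084), so the size of the PDHB rise depends on the probe set. DLAT rose by 0.30 ± 0.06 (adjusted p = 0.00102) and 0.49 ± 0.06 (adjusted p = 1.32e-05), and its ERC4 call ended after quantile or loess scaling. With DLAT's probe set that is brightest within the set, 211150_s_at, the ERC4 value was -0.03.

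Of the kinases that inactivate the complex, PDK1 and PDK3 fell in HCC827_Esh9-1, while PDK3 rose in ERC4. PDK2 and PDK4, kinases outside the 36 that were named after their values were seen, were not called in either comparison, at 0.10 and 0.14 in ERC4 and at 0.05 and 0.08 in HCC827_Esh9-1. PDK3 was 6.47, 6.31 and 6.75 in HCC827 and 7.33, 7.10 and 7.39 in ERC4, a rise of 0.77 ± 0.11 (1.70-fold, adjusted p = 2.55e-05). In HCC827NT it was 8.06, 8.16 and 8.08 and in HCC827_Esh9-1 7.32, 7.40 and 7.48, a change of -0.70 ± 0.11 (1.63-fold, adjusted p = 5.19e-05). No arrays overlapped, and the difference between both changes was 1.47 ± 0.15 (adjusted p = 1.68e-06). A dimmer PDK3 probe set, 206348_s_at, gave 0.68 and -0.54. Another, 206347_at, gave 0.04 in ERC4 and -0.24 in HCC827_Esh9-1. With it neither the ERC4 change (adjusted p = 0.726 over all probe sets) nor the difference (0.28, adjusted p = 0.0593) was called. PDK1 fell in HCC827_Esh9-1 from 8.90, 8.57 and 8.36 to 7.41, 7.50 and 7.70, by 1.08 ± 0.13 on the log2 scale (2.11-fold, adjusted p = 4.45e-06). In ERC4 it differed by 0.13 ± 0.13 and its arrays overlapped with those of HCC827.

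Among the pentose phosphate genes, PGD, the dehydrogenase of the oxidative arm that yields NADPH, rose in ERC4 by 0.42 ± 0.09 (adjusted p = 0.000902) and fell in HCC827_Esh9-1 by 0.49 ± 0.09 on the log2 scale (adjusted p = 0.000248). Its ERC4 call ended after quantile or loess scaling (0.20 to 0.21). The difference between both PGD changes was 0.91 ± 0.12 (adjusted p = 2.73e-05). TKT, the transketolase of the non-oxidative arm, was -0.40 ± 0.06 lower in HCC827_Esh9-1 (adjusted p = 0.0001). The other TKT probe set, 208700_s_at, was higher by 0.32 there, so the direction in HCC827_Esh9-1 depends on the probe set. In ERC4 TKT differed by -0.15 ± 0.06 and was not called, and 208700_s_at gave -0.30 (adjusted p = 0.00372 over all probe sets). TALDO1, the transaldolase, was not called, at -0.08 ± 0.06 and -0.14 ± 0.06.

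Of the TCA cycle genes, the cytosolic enzymes on the list fell in both comparisons. IDH1, the cytosolic NADP-dependent isocitrate dehydrogenase, was 9.03, 9.16 and 9.13 in HCC827 and 8.24, 8.28 and 8.08 in ERC4, a change of -0.91 ± 0.07 (1.88-fold, adjusted p = 7.75e-08). In HCC827NT it was 11.73, 11.77 and 11.80 and in HCC827_Esh9-1 10.15, 10.06 and 10.08, a change of -1.67 ± 0.07 (3.18-fold, adjusted p = 5.84e-11). All arrays of both lines were below those of their controls. Relative to the array median IDH1 stood at 4.60 in HCC827NT and 3.36 in HCC827, so the controls of the 2 sets differed as well, which cannot be told apart from the set. The fall was larger in HCC827_Esh9-1, by 0.76 ± 0.10 (adjusted p = 1.79e-05). MDH1, the cytosolic malate dehydrogenase, went from 10.49, 10.63 and 10.43 to 9.99, 10.07 and 10.07 in ERC4, a change of -0.48 ± 0.07 (adjusted p = 2.66e-05). It went from 12.39, 12.38 and 12.35 to 11.70, 11.69 and 11.70 in HCC827_Esh9-1, a change of -0.67 ± 0.07 (1.60-fold, adjusted p = 6.53e-07).

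The mitochondrial counterparts had smaller log2 changes. IDH2, the mitochondrial NADP-dependent enzyme, differed by 0.05 ± 0.08 in ERC4 and fell by 0.49 ± 0.08 on the log2 scale in HCC827_Esh9-1 (adjusted p = 0.000137). A dimmer IDH2 probe set, 210045_at, gave 0.01 in HCC827_Esh9-1 (adjusted p = 0.942 over all probe sets), so that fall depends on the probe set. MDH2, the mitochondrial malate dehydrogenase, was not called, at 0.13 ± 0.07 and 0.01 ± 0.07, although the mean of its probe sets was lower in HCC827_Esh9-1 (-0.27). The log2 ratio of IDH1 to IDH2 fell by 0.96 in ERC4 and by 1.18 in HCC827_Esh9-1, and that of MDH1 to MDH2 by 0.60 and 0.68, with no overlap of arrays in any of the 4.

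IDH3A, a subunit of the NAD-dependent isocitrate dehydrogenase of the cycle itself, had the largest rise of the list in ERC4. It lay at 5.95, 6.24 and 6.27 in HCC827 and 7.71, 7.79 and 7.28 in ERC4, a rise of 1.44 ± 0.13 (2.71-fold, adjusted p = 3.22e-07). ERC4 replicate 3 was lower than the other 2 but still above every HCC827 array. In HCC827_Esh9-1 it was 0.32 ± 0.13 higher (adjusted p = 0.0488), and that call ended without HCC827 replicate 2, ERC4 replicate 1, any HCC827NT array or HCC827_Esh9-1 replicate 2 or 3 (0.24 to 0.37). Quantile and loess scaling ended it too (0.29 to 0.31). A second IDH3A probe set, 202070_s_at, gave 0.89 and 0.79. CS, citrate synthase, which starts the cycle, fell in HCC827_Esh9-1 from 11.54, 11.59 and 11.57 to 10.92, 10.96 and 10.93, by 0.63 ± 0.06 on the log2 scale (1.55-fold, adjusted p = 3.46e-07). Its ERC4 value of 0.14 ± 0.06 (adjusted p = 0.0458) lost its call without any 1 array other than HCC827 replicate 2 (0.12 to 0.16), and turned to between -0.04 and -0.03 after quantile or loess scaling. OGDH, of the oxoglutarate dehydrogenase complex, fell in HCC827_Esh9-1 from 9.54, 9.72 and 9.52 to 8.93, 8.85 and 8.97, by 0.67 ± 0.08 on the log2 scale (1.60-fold, adjusted p = 4.95e-06). In ERC4 OGDH rose by 0.29 ± 0.08 (adjusted p = 0.00653), which was no longer called after quantile or loess scaling (0.07 to 0.10).

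Across both comparisons, 7 genes were called higher in ERC4 and lower in HCC827_Esh9-1 (SLC2A1, PFKFB3, PGK1, PDK3, PGD, CS and OGDH), 19.4% of the list against 6.4% of all genes. Under each of the quantile and loess scalings this number was 3 (SLC2A1, PGK1 and PDK3), or 8.33% of the list, against 4.55% to 5.28% of all genes. The reverse combination held none of the 36, against 3.25% of all genes. PDHA1, PDHB, DLAT and IDH3A were higher in both (13.4% of all genes), PFKFB4, ALDOC, IDH1 and MDH1 lower in both (8.8% of all genes), and 7 genes were called in neither. Both comparisons share no arrays. The difference between both changes, tested as an interaction, was called for 23 of the 36 (49.6% of all genes), 19 of them higher (25.5% of all genes) and 4 lower (24.1%). Leaving out 1 array at a time gave 20 to 23, and the calls that ended were those of PFKL, PFKFB4 and TKT. It reached at least 1 log2 unit for SLC2A1, HK2, PFKFB3, ALDOC, PGK1, PDK1, PDK3 and IDH3A, which are 22.2% of the list, while 10.8% of all genes did. For HK2, PFKFB3, ALDOC and PDK1 most of that difference lay in HCC827_Esh9-1, and for IDH3A in ERC4.

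**Figure D3:**
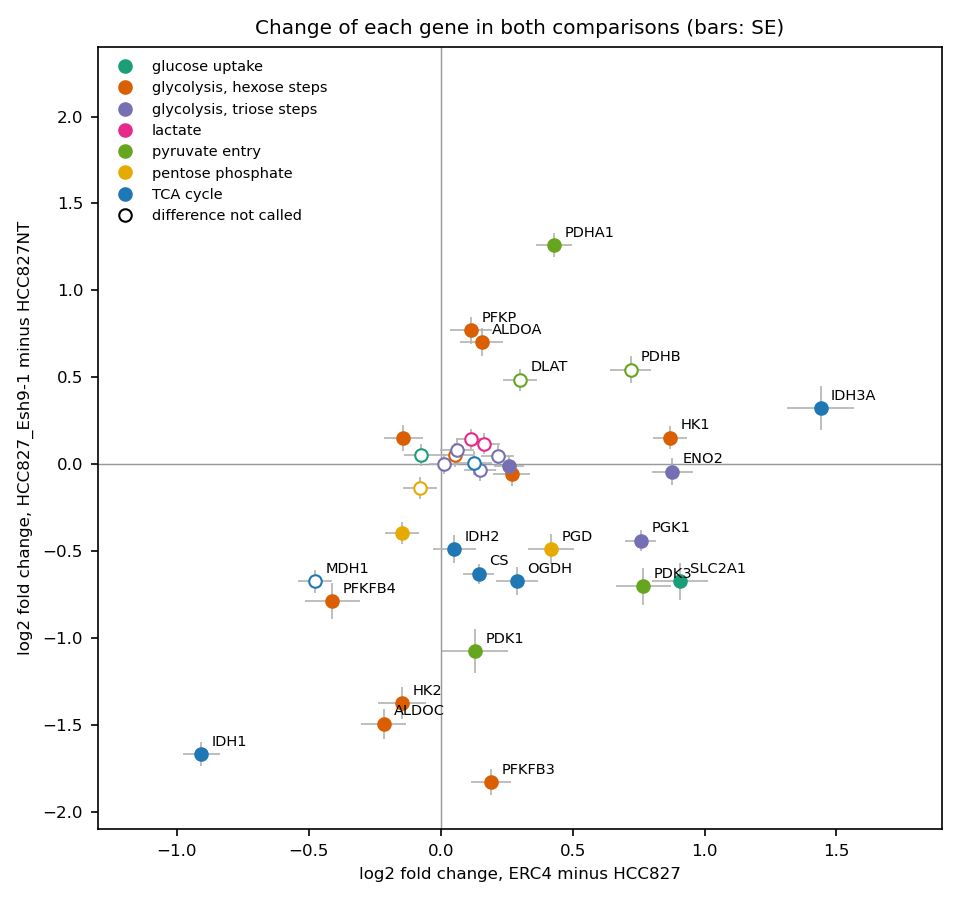
Log2 fold change in ERC4 minus HCC827 (horizontal) against that in HCC827_Esh9-1 minus HCC827NT (vertical) for the 36 genes, with standard errors; filled points have a called difference between both changes. SLC2A1, PDK3 and PGK1 lie to the lower right, IDH1 to the lower left, and PDHA1 and PDHB to the upper right.

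Most of these genes are bright, and bright genes as a whole were shifted upward in ERC4. Of the 2393 genes in the brightest 20% by mean level, 53.2% were called higher and 17.1% lower in ERC4, with a median log2 fold change of 0.21. The list had 27 members in that part, of which 14 were higher, 2 lower and 11 not called. In the dimmest of 10 equal parts of the genes 3.43% were called higher and 23.2% lower. Against the running median of genes of like level, 18 of the 36 were above it in ERC4 (49.9% of all genes), and the median of the list minus that running median was 0.01. The median of the list in ERC4 thus lay at that of genes of like brightness, and single members stood clear of it. By branch, the genes above the running median in ERC4 were 2 of 2 for glucose uptake and 3 of 10 for the hexose steps. They were 5 of 7 for the triose steps, 1 of 2 for lactate and 4 of 5 for pyruvate entry. For the pentose phosphate pathway they were 1 of 3, and for the TCA cycle 2 of 7. Furthest above the running median were SLC2A1 (0.69), HK1 (0.67), PGK1 (0.63), ENO2 (0.65), PDK3 (0.69), PDHB (0.49) and IDH3A (1.36), and furthest below it were IDH1 (-1.14) and MDH1 (-0.62).

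Scaling that follows signal level changed the counts in ERC4, but none of these members lost its call. After cyclic loess within each set, 9 members were higher and 9 lower in ERC4, in place of 18 and 4. All 9 higher ones were among the 18, and HK2, PFKL, PFKM, TKT and TALDO1 joined the lower ones. Quantile normalization within each set gave 11 higher and 9 lower. Members called higher under every alternative tried were SLC2A1, HK1, PGK1, ENO2, PDK3, PDHA1, PDHB and IDH3A, and those called lower were PFKFB4, IDH1 and MDH1. The shift with brightness was smaller in HCC827_Esh9-1, where 37.2% of the brightest 20% were higher and 31.6% lower. There, 13 of the 36 lay above the running median (49.7% of all genes), and the 25 members in the brightest 20% were 6 higher, 7 lower and 12 not called. Under cyclic loess 5 members were higher and 16 lower. Of the 15 lower members, 14 remained called under every alternative, all but TKT.

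**Figure D4:**
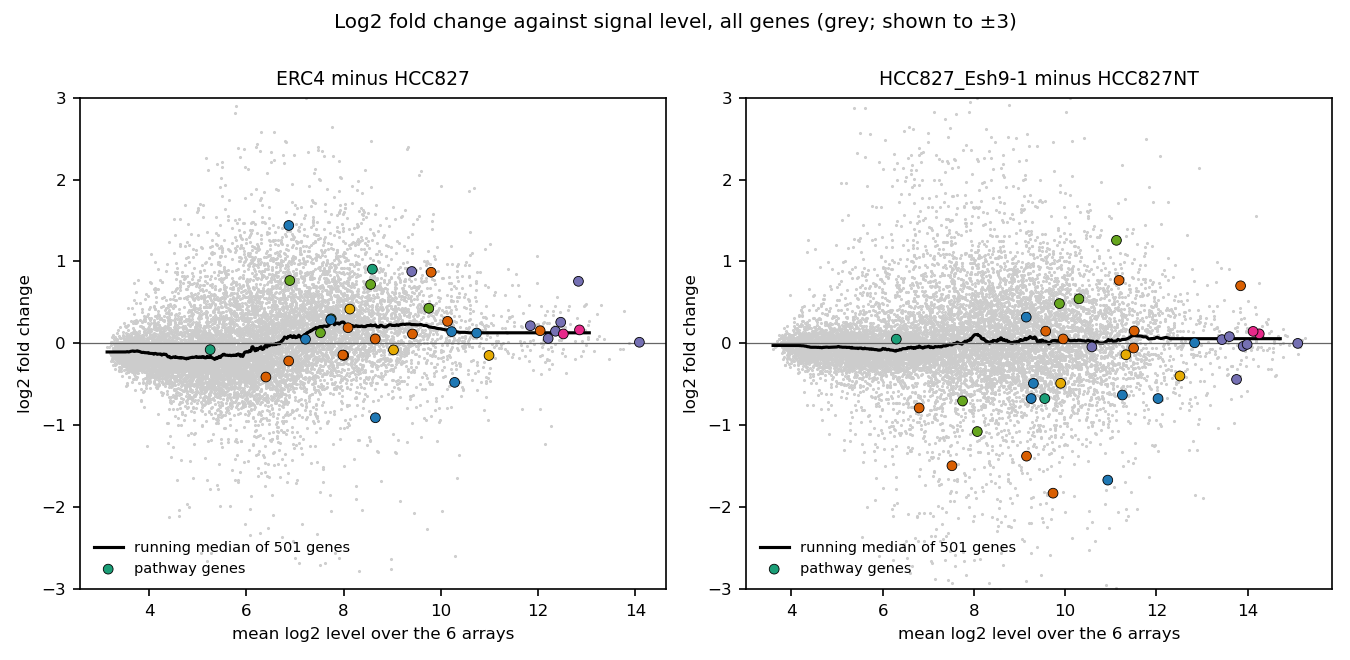
Log2 fold change of each gene (grey, shown to ±3) against its mean log2 level over the 6 arrays of the comparison, with the running median over genes of like level (line) and the 36 pathway genes coloured by branch as in the plot of changes by branch. In ERC4 the line runs below 0 for dim genes and above 0 for bright ones, where most pathway genes lie; in HCC827_Esh9-1 it stays near 0.

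Other genes of these pathways, from lists drawn up by function, were set beside the members. Their counts are to be read against all genes, of which 28.9% were higher and 28.8% lower in ERC4, and 25.3% higher and 24.6% lower in HCC827_Esh9-1. Of 28 further genes of glycolysis and transport, 6 were higher (21.4%) and 10 lower (35.7%) in ERC4, and 7 higher (25%) and 3 lower (10.7%) in HCC827_Esh9-1. HKDC1, a hexokinase-like protein, rose in ERC4 by 1.30 ± 0.09 and fell in HCC827_Esh9-1 by 1.07 ± 0.09 on the log2 scale. TIGAR, which lowers fructose 2,6-bisphosphate, rose in both, by 0.87 ± 0.10 and 0.73 ± 0.10. FBP1, the gluconeogenic enzyme opposing phosphofructokinase, fell by 0.79 ± 0.09 in ERC4 and by 1.34 ± 0.09 in HCC827_Esh9-1 on the log2 scale. GPD2, of the glycerol phosphate shuttle, fell by 0.72 ± 0.11 and by 1.32 ± 0.11. SLC2A6, a transporter-like protein, rose by 0.67 ± 0.14 in ERC4 and by 1.41 ± 0.14 in HCC827_Esh9-1. BPGM, which makes 2,3-bisphosphoglycerate, rose by 1.39 ± 0.10 in HCC827_Esh9-1 and was not called in ERC4 (0.17 ± 0.10).

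Of 10 further pentose phosphate genes, 3 were higher and none lower in ERC4 (all genes 28.9% and 28.8%), and 3 were higher and 4 lower in HCC827_Esh9-1 (all genes 25.3% and 24.6%). PRPS2, which makes phosphoribosyl pyrophosphate from ribose 5-phosphate, rose in both, by 1.72 ± 0.09 and 1.30 ± 0.09. DERA, a deoxyribose-phosphate aldolase, rose in ERC4 by 0.75 ± 0.07 and in HCC827_Esh9-1 by 0.28 ± 0.07. PRPS1 rose in ERC4 by 0.33 ± 0.08 and in HCC827_Esh9-1 by 0.67 ± 0.08. In HCC827_Esh9-1 RPE, the ribulose-phosphate epimerase, fell by 0.66 ± 0.08 and PGLS, the lactonase of the oxidative arm, by 0.53 ± 0.08 on the log2 scale. RPE and PGLS were not called in ERC4.

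Of 14 further genes of pyruvate entry, 8 were higher (57.1%, all genes 28.9%) and 1 lower in ERC4, and 6 higher (42.9%, all genes 25.3%) and 2 lower in HCC827_Esh9-1. Bright genes as a whole were shifted upward in ERC4 (53.2% of the brightest 20% called higher). The shares of this list were not set against genes of like level. MPC2, of the mitochondrial pyruvate carrier, rose in ERC4 by 1.66 ± 0.07 and was not called in HCC827_Esh9-1 (0.09 ± 0.07). ME2, the mitochondrial malic enzyme, rose by 1.61 ± 0.07 in ERC4 and 1.08 ± 0.07 in HCC827_Esh9-1. PDHX, another part of the pyruvate dehydrogenase complex, rose by 1.20 ± 0.08 in ERC4 and 1.06 ± 0.08 in HCC827_Esh9-1. PDP1, the phosphatase that reactivates the complex, fell by 0.40 ± 0.08 in ERC4 and by 0.21 ± 0.08 in HCC827_Esh9-1. PDPR, its regulatory subunit, fell by 0.26 ± 0.09 in HCC827_Esh9-1 and was not called in ERC4 (-0.08 ± 0.09).

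Of 16 further TCA cycle genes, 11 were higher (68.8%, all genes 28.9%) and none lower in ERC4, where bright genes as a whole were shifted upward (53.2% of the brightest 20% called higher). In HCC827_Esh9-1, 6 were higher (37.5%, all genes 25.3%) and 4 lower (25%, all genes 24.6%). ACO1, the cytosolic aconitase that also binds iron-responsive elements, rose by 1.98 ± 0.07 in ERC4 and 0.65 ± 0.07 in HCC827_Esh9-1. SUCLG2, a succinyl-CoA ligase subunit, rose by 1.25 ± 0.07 in ERC4 and 0.24 ± 0.07 in HCC827_Esh9-1. SUCLA2, another such subunit, rose by 1.15 ± 0.15 in ERC4 and 0.85 ± 0.15 in HCC827_Esh9-1. SDHD, of succinate dehydrogenase, rose by 0.33 ± 0.07 in ERC4 and 0.72 ± 0.07 in HCC827_Esh9-1. SLC25A1, the mitochondrial citrate carrier, rose in ERC4 by 0.53 ± 0.08 and fell in HCC827_Esh9-1 by 1.03 ± 0.08 on the log2 scale. IDH3G, a partner subunit of IDH3A, fell in HCC827_Esh9-1 by 1.02 ± 0.08 on that scale and was not called in ERC4 (0.03 ± 0.08).

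Hypoxia-responsive genes outside metabolism were counted beside them, since several members are known targets of hypoxia-inducible factors. The list also holds HIF1A, ARNT and EPAS1, which encode subunits of these factors. Of 17 measured, 10 were higher (58.8%, all genes 28.9%) and 3 lower in ERC4, and 4 were higher and 8 lower (47.1%, all genes 24.6%) in HCC827_Esh9-1. HIF1A and EPAS1 were among the higher ones in ERC4, and ARNT among the lower ones in HCC827_Esh9-1. These shares too were not set against genes of like level, and bright genes as a whole were shifted upward in ERC4. EPAS1, which encodes HIF-2alpha, rose in ERC4 by 2.05 ± 0.06, and ADM, adrenomedullin, by 1.63 ± 0.07. In HCC827_Esh9-1 EPAS1 was not called (0.14 ± 0.06) and ADM fell by 0.79 ± 0.07 on the log2 scale. EGLN3, an oxygen-sensing prolyl hydroxylase, fell in both, by 1.02 ± 0.09 and by 1.20 ± 0.09. ERO1A, an oxidase of the endoplasmic reticulum, also fell in both, by 0.44 ± 0.09 and by 1.08 ± 0.09 on the log2 scale. VEGFA, the angiogenic factor, rose in ERC4 by 1.00 ± 0.07 and fell in HCC827_Esh9-1 by 1.11 ± 0.07 on the log2 scale. ANGPTL4 rose in HCC827_Esh9-1 by 1.92 ± 0.09 and fell in ERC4 by 0.26 ± 0.09. CA12, a carbonic anhydrase, rose in HCC827_Esh9-1 by 0.86 ± 0.10 and was not called in ERC4 (-0.06 ± 0.10). The list did not move as one in either comparison.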

How the data were processed

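Biotin-labelled cRNA of 12 samples was hybridised to arrays of 22277 probe sets. The deposited values are intensities on a linear scale, which the authors made using RMA (per the submitters' processing notes). Which arrays were processed together is not given in the sources used here. Groups came from the sample titles, since 1 label field calls all 12 samples resistant. Values were taken to log2(intensity + 1), which understates changes of dim genes. The design had assumed log2 values. The platform annotation gave 1 symbol to 19070 probe sets, several to 1043 and none to 2164, and only the first kind was named. The brightest probe set by mean over 12 arrays stood for a gene. Of the members, 19 have several probe sets, and 6 chosen ones (SLC2A3, PFKL, ALDOA, GAPDH, LDHB and TKT) have the _x_at suffix of probes that may bind related transcripts.

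The comparisons used limma 3.58.1 (R 4.3.3) with lmFit and eBayes (1 model of 12 arrays, 8 residual degrees of freedom, two-sided, Benjamini-Hochberg over 11963 genes). Errors of changes are limma's standard errors. The procedure was run on simulated data with known changes in few genes and no shift with signal level. That run has no bearing on how the counts depend on scaling. With 3 arrays per group precision is limited, and an exact test of 3 against 3 cannot give a p under 0.1. Per-array values are given for members called with at least 1.5-fold in a comparison or with a called difference between both changes of at least 1 on the log2 scale, and for GAPDH. Of each further pathway list, up to 2 called genes in each direction with the largest changes in a comparison are named, with their result in the other comparison. The members and lists were chosen with earlier results of these data known. Promoter windows are RefSeq's. Alternatives were the replicate number as a block, a fit of the 6 arrays compared, a trended and robust eBayes, other scalings, no pseudocount, a filter on dim genes, other choices of probe set, dropping single arrays and a stricter threshold of 0.01. Figures were drawn with matplotlib 3.10.9.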

Additional observations from a re-analysis of the deposited data

How the results depend on the processing

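The counts of members in ERC4 depended on the scaling. In place of 18 higher and 4 lower, quantile normalization over 12 arrays gave 10 and 9, quantile normalization within each set 11 and 9, and cyclic loess within each set 9 and 9, and the higher share of the called members went from 81.8% to 52.6%, 55% and 50%. Median centring gave 21 and 3. A fit of only the 6 arrays compared gave 14 and 4 in ERC4, and 7 higher and 15 lower in HCC827_Esh9-1. With dim genes left out, 2247 genes were called lower in ERC4 in place of 3449, and 3423 higher in place of 3453. In the reported fit, the dimmest of 10 equal parts of the genes had 23.2% called lower and 3.43% called higher. The other counts stayed within 1.5 times under each alternative. Leaving out 1 array at a time gave 14 to 17 members higher and 3 or 4 lower in ERC4, 5 to 7 higher and 15 lower in HCC827_Esh9-1, and 20 to 23 with a called difference. Signs of values called in the reported fit or under the alternative turned as follows, and the cause was not tested; values called in neither also changed sign and are not listed. Under those 3 scalings, in the same order, ERC4 values became -0.16, -0.17 and -0.17 for PFKM, -0.021, -0.022 and -0.016 for PFKFB3, and -0.036, -0.034 and -0.029 for CS. With probe sets averaged per gene, ENO1 was -0.46 in ERC4 and -0.087 in the difference, TKT was -0.19 in the difference, and MDH2 was -0.27 in HCC827_Esh9-1. With the probe set brightest within the set, DLAT was -0.027 in ERC4 and TKT 0.32 in HCC827_Esh9-1.

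With the replicate number as a block, 15 members were higher and 4 lower in ERC4, 5 higher and 15 lower in HCC827_Esh9-1, and 23 had a called difference. The calls that ended were those of PFKFB3, TPI1 and CS in ERC4 and of LDHB and IDH3A in HCC827_Esh9-1. Whether the numbers pair the samples is not settled here. Arrays of the same number correlated in their deviations at 0.04, 0.07 and 0.00 for HCC827 and ERC4. For HCC827NT and HCC827_Esh9-1 the values were -0.12, -0.02 and -0.11. With 3 arrays per group such values cannot exclude a pairing. With 3 arrays per group, changes near 0.15 on the log2 scale were at the limit of what was called.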
